A study of Homo sapiens with 12 samples.

Results

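SNU601, a line grown from the ascites of a signet ring cell gastric carcinoma, was compared with MKN1, a line from an adenosquamous gastric carcinoma. Each line had 4 expression arrays, 1 per treatment: the vehicle DMSO, Rhosin (a small molecule that binds the GTPase RhoA and blocks its activation by exchange factors), and the compounds JK136 and JK139, known here only by their code names. The 8 arrays were chosen by the line and the treatment in the sample titles and paired by treatment, out of 12 arrays in all, and the other 4 hold AGS, a gastric adenocarcinoma line, under the same treatments. All 3 lines are labelled as stomach cancer cells and were grown in RPMI-1640 with fetal calf serum. Doses, treatment times and the number of separate cultures are not given in the labels. Each line is 1 established line and each line and treatment 1 array. The p-values below therefore set the line difference against how far line differences varied over the 4 treatments. That spread was pooled over all 3 lines, AGS included, and may be technical. Line and any unrecorded batch cannot be told apart.

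The arrays (Affymetrix Human Gene 2.0 ST) give 1 log2 value for each transcript cluster, a set of probes against one transcribed locus. A difference of 1 on this scale is 2-fold. Of 53617 clusters, 16098 (30%) carried a gene symbol, and these cover 14884 genes, all of which were tested. A value at or below 4.61, the 40th percentile of gene means, is called low here, because the files give no detection call. Differences against a low value are reported as measured and may be smaller than the true ones.

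Epithelial cells are held together by tight junctions, which seal the sheet, and by desmosomes, which anchor it to keratin filaments. Transcription factors of the SNAI and ZEB families bind E-box motifs in promoters of such genes and are known for switching cells towards a mesenchymal state, in which fibronectin and vimentin are made and junctions are given up. The gastric lining adds its own genes, among them trefoil peptides, gastric proteases and the stomach form of claudin 18.

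SNU601 and MKN1 differed across much of the transcriptome. At a limma adjusted p under 0.05, 6813 of 14884 genes (45.8%) were called: 3246 were higher in SNU601 (21.8%) and 3567 lower (24%). At least 2-fold apart and called were 784 genes higher in SNU601 (5.27%) and 1110 genes lower (7.46%), and all 1894 had 1 sign in the 4 treatment pairs. At least 4-fold apart were 175 higher and 363 lower, and at least 16-fold apart 25 higher and 59 lower. The 4 SNU601 arrays lay wholly above the 4 MKN1 arrays for 3330 genes (22.4%) and wholly below them for 3559 (23.9%).

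The size of the differences was modest for most genes. The median absolute difference was 0.261, and the median half-width of its 95% confidence interval was 0.242. Correlations over all clusters ran from 0.9303 to 0.9334 between SNU601 and MKN1 arrays, against 0.9835 to 0.9878 within SNU601 and 0.9847 to 0.9865 within MKN1. The split of calls depended on the scaling: 47.6% of called genes were higher in SNU601 on the deposited values, and 60.8% when each array was centred on its median over genes. That centring moved the median of all differences to 0.137, against 0.028 on the deposited values, so small differences are read against this shift.

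**Figure D1:**
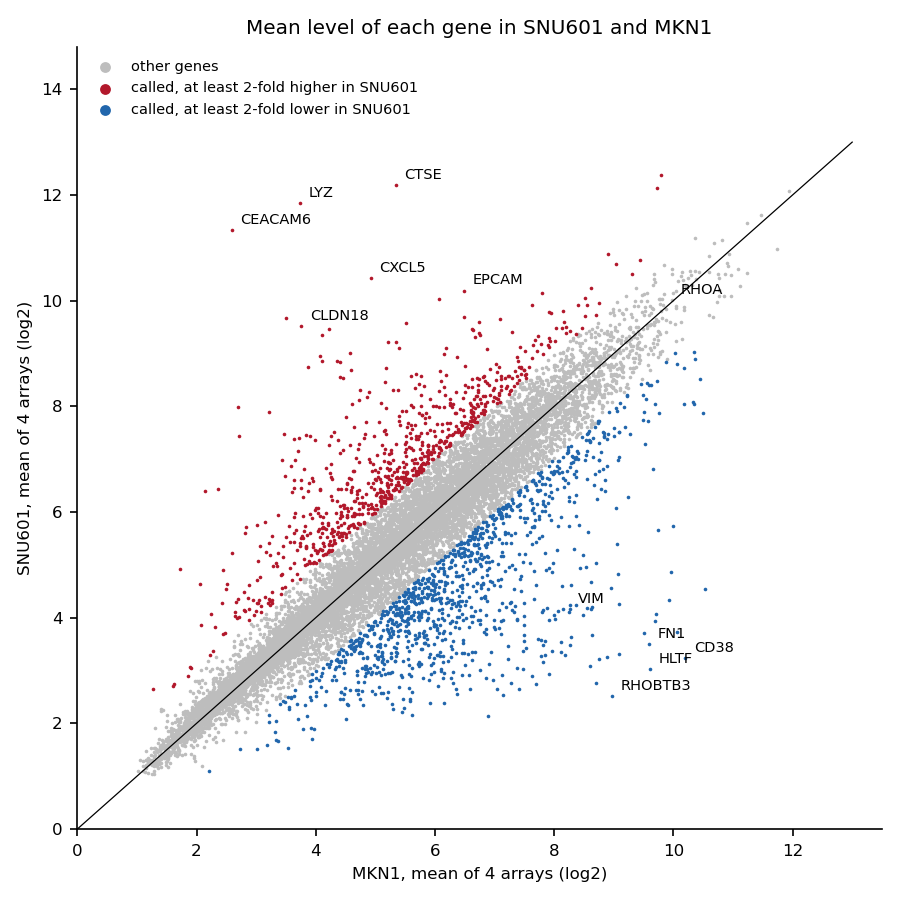
Mean log2 value of each of 14884 genes over 4 SNU601 arrays (vertical axis) against the mean over 4 MKN1 arrays (horizontal axis). Called genes at least 2-fold apart are coloured, 784 higher in SNU601 and 1110 lower, and the named genes furthest from the diagonal include CEACAM6 and LYZ above it and CD38 and HLTF below it.

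The largest difference in favour of SNU601 was that of CEACAM6. CEACAM6, a carcinoembryonic antigen family glycoprotein, read 11.18, 11.48, 11.33 and 11.31 in SNU601 under DMSO, Rhosin, JK136 and JK139, against 2.36, 2.71, 3.05 and 2.29 in MKN1. Every SNU601 array was high and every MKN1 array low, and the difference was 8.72 ± 0.158 (SE; limma adjusted p = 1.22e-11). CEACAM5, the carcinoembryonic antigen itself, read 9.2, 10.21, 9.62 and 9.66 in SNU601 under the same order of treatments, against 3.0, 4.37, 3.12 and 3.5 in MKN1, a difference of 6.18 ± 0.238. These paralogs share long stretches of sequence, so their probes may not tell them fully apart.

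LYZ, the antibacterial enzyme lysozyme, read 11.92, 11.68, 11.91 and 11.85 in SNU601, against 3.77, 4.04, 3.52 and 3.61 in MKN1. The difference was 8.1 ± 0.203 (limma adjusted p = 7.77e-11). The chemokine gene CXCL5, whose product attracts neutrophils, read 10.71, 9.91, 10.67 and 10.38 in SNU601, against 4.89, 4.82, 5.27 and 4.75 in MKN1. In neither gene did the lines overlap. Both GALNT3 and GALNT5, which add the first sugar of mucin-type O-glycans, were higher in SNU601, by 4.68 and 4.89 log2 units, as was the mucin-like gene MUCL3, by 5.24. PIWIL1, a germline protein that binds piRNAs, averaged 9.35 ± 0.11 in SNU601 and 4.1 ± 0.17 in MKN1 (SD, n = 4 each). The long non-coding RNA AFAP1-AS1 averaged 8.74 ± 0.02 in SNU601 and 3.87 ± 0.24 in MKN1. ZNF544, a zinc finger gene, was higher by 4.71, but its MKN1 arrays spread more than those of the other leading genes, at 1.8, 3.46, 3.63 and 2.0.

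In the other direction the largest differences were those of CD38 and HLTF. CD38, an enzyme that breaks down NAD, read 3.16, 3.37, 3.22 and 3.2 in SNU601, against 10.38, 10.19, 9.97 and 10.26 in MKN1, a difference of -6.96 ± 0.116 (limma adjusted p = 7.74e-12). HLTF, a DNA translocase that acts at stalled replication forks, read 2.87, 2.94, 3.24 and 3.05 in SNU601, against 9.43, 9.48, 9.69 and 9.84 in MKN1. All 4 SNU601 arrays were at low values for both genes, and AGS was low too, at means of 3.43 for CD38 and 2.99 for HLTF. RHOBTB3, a protein of the Golgi and endosomes, read 2.31, 3.15, 2.42 and 2.13 in SNU601, against 8.97, 8.94, 8.76 and 9.21 in MKN1. Here AGS, with a mean of 8.88, was like MKN1. Among the other genes lowest in SNU601, the fibronectin gene FN1 fell by 6.09 in SNU601, IGFBP3 (a carrier of insulin-like growth factors) by 5.76, CCN3 by 5.64, EDIL3 by 5.93 and LUM, a collagen-binding proteoglycan, by 5.55. PTGIS, which makes prostacyclin, averaged 4.33 ± 0.17 in SNU601 and 9.93 ± 0.4 in MKN1 (SD, n = 4 each). The synaptonemal complex gene SYCP2, normally of germ cells, averaged 3.08 ± 0.23 in SNU601 and 8.6 ± 0.08 in MKN1. HEG1, MAMDC2, RASSF8, NUDT19 and PALMD completed the 15 lowest genes, with differences between -6.33 and -5.62.

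The epithelial adhesion genes were higher in SNU601 almost without exception. Of 23 measured genes of junctions, polarity and epithelial regulation, 22 were called higher and 1 lower, and 20 were at least 2-fold higher, beside 21.8% and 5.27% of all genes. Their median difference was 1.74, against 0.03 over all genes. EPCAM, an adhesion protein of simple epithelia, read 10.31, 10.0, 10.24 and 10.2 in SNU601, against 6.23, 6.32, 6.73 and 6.67 in MKN1. CLDN7, a tight junction claudin, read 10.04, 10.08, 9.95 and 10.05 in SNU601, against 6.14, 5.96, 6.03 and 6.1 in MKN1. In both genes MKN1 was clearly above the low level although far below SNU601.

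Desmosomes and tight junctions followed the same order. DSC2, a desmosomal cadherin, read 8.96, 9.16, 9.0 and 8.88 in SNU601, against 4.51, 4.82, 4.25 and 4.7 in MKN1, a difference of 4.43 ± 0.122 (limma adjusted p = 1.55e-10). Its partner DSG2 was higher by 2.3, the plaque protein JUP by 1.86 and DSP, which ties desmosomes to keratins, by 1.21. OCLN (occludin) was higher by 2.37 and MARVELD2, a protein of tricellular contacts, by 1.74. CLDN3 was the exception, at 6.11 ± 0.13 in SNU601 and 6.62 ± 0.13 in MKN1 (SD, n = 4 each), and it fell by 0.52 (limma adjusted p = 0.000553).

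Regulators of the epithelial state moved with the junction genes. ESRP1, which directs epithelial splicing, read 8.88, 8.88, 8.79 and 8.9 in SNU601, against 3.9, 4.42, 3.96 and 4.16 in MKN1. GRHL2, a transcription factor that maintains junction genes, averaged 7.37 ± 0.05 in SNU601 and 3.98 ± 0.22 in MKN1 (SD, n = 4 each). EHF, an ETS factor of epithelia, was higher by 3.55, and here AGS, with a mean of 4.98, resembled MKN1 rather than SNU601. ESRP2 and KLF5 were higher by 1.53 and 1.57, and OVOL1 and OVOL2, which restrain mesenchymal genes, by 1.22 and 1.33. The membrane protease gene ST14 was higher by 2.82 and the polarity genes LLGL2 and CRB3 by 2.43 and 1.55.

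Promoters of 2 of these genes are shown because they hold the E-box that SNAI and ZEB factors are known to bind. The motif was searched as CAGGTG on either strand, with overlaps counted, in windows from 250 bases before to 50 bases after each RefSeq gene start (GRCh38.p14). It occurred in 6 of 15 epithelial promoters with a sequence (40%), in 3 of 10 mesenchymal ones (30%), in 5 of 12 of the gastric list described below (41.7%) and in 19.9% of 10749 promoters of measured genes. CRB3 held 5 copies, the most of the epithelial genes, and DSP 2. The 250 bases before the start of CRB3 (chr19:6464021-6464270, plus strand) and of DSP (chr6:7541421-7541670, plus strand) read as follows, with each E-box in capitals.
CRB3: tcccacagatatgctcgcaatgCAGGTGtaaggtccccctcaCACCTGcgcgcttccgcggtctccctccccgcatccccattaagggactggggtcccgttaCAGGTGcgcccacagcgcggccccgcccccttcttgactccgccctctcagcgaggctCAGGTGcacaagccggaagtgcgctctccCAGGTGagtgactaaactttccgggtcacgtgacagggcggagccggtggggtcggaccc
DSP: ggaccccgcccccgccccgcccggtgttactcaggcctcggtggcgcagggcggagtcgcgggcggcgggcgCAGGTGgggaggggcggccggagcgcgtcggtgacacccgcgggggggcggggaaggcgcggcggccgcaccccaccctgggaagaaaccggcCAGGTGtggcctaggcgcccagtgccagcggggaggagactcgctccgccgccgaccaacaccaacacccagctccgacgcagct
A match is a description of the letters and says nothing of binding in these cells.

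Mesenchymal genes were lower in SNU601 in 9 of 15 measured cases, with 1 higher and 5 not past the threshold, beside 24% called lower over all genes. The list's median difference was -1.24, and 8 of the 9 were at least 2-fold lower, beside 7.46% of all genes. FN1 read 3.58, 3.55, 3.33 and 3.55 in SNU601, against 9.55, 9.49, 9.68 and 9.64 in MKN1. VIM, the intermediate filament vimentin, read 4.38, 4.25, 3.92 and 4.08 in SNU601, against 8.2, 8.12, 8.47 and 8.25 in MKN1, a difference of -4.1 ± 0.121 (limma adjusted p = 2.43e-10). Both genes were low on every SNU601 array. The receptor kinase AXL fell by 2.97, LOX, which crosslinks collagen, by 2.53, and the hyaluronan receptor CD44 by 2.12, although CD44 still averaged 8.05 in SNU601.

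Of 7 mesenchymal transcription factors, 3 were called, all lower in SNU601, beside 45.8% called and 24% called lower over all genes. The median difference of the 7 was 0.03, the same as over all genes, so the factors did not differ as a set. SNAI2 (Slug) read 4.2, 3.93, 3.78 and 3.89 in SNU601, against 6.96, 7.11, 7.05 and 6.85 in MKN1. ZEB1 read 3.25, 3.26, 3.24 and 3.43 in SNU601, against 5.8, 6.05, 6.16 and 6.2 in MKN1. The differences were -3.04 ± 0.157 and -2.76 ± 0.125, with no overlap between the lines. SNAI1 fell by 0.42 (limma adjusted p = 0.0157), a call lost after median centring (0.0512), quantile normalization (0.0574) and without the MKN1 DMSO (0.0528) or JK136 array (0.0687). ZEB2, TWIST1, TWIST2 and PRRX1 did not pass the threshold, with differences between 0.03 and 0.21 and means at or below 4.35 in both lines. TAGLN, an actin-binding protein of smooth muscle, ran the other way, at 5.44 ± 0.15 in SNU601 and 4.67 ± 0.25 in MKN1 (SD, n = 4 each).

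**Figure D2:**
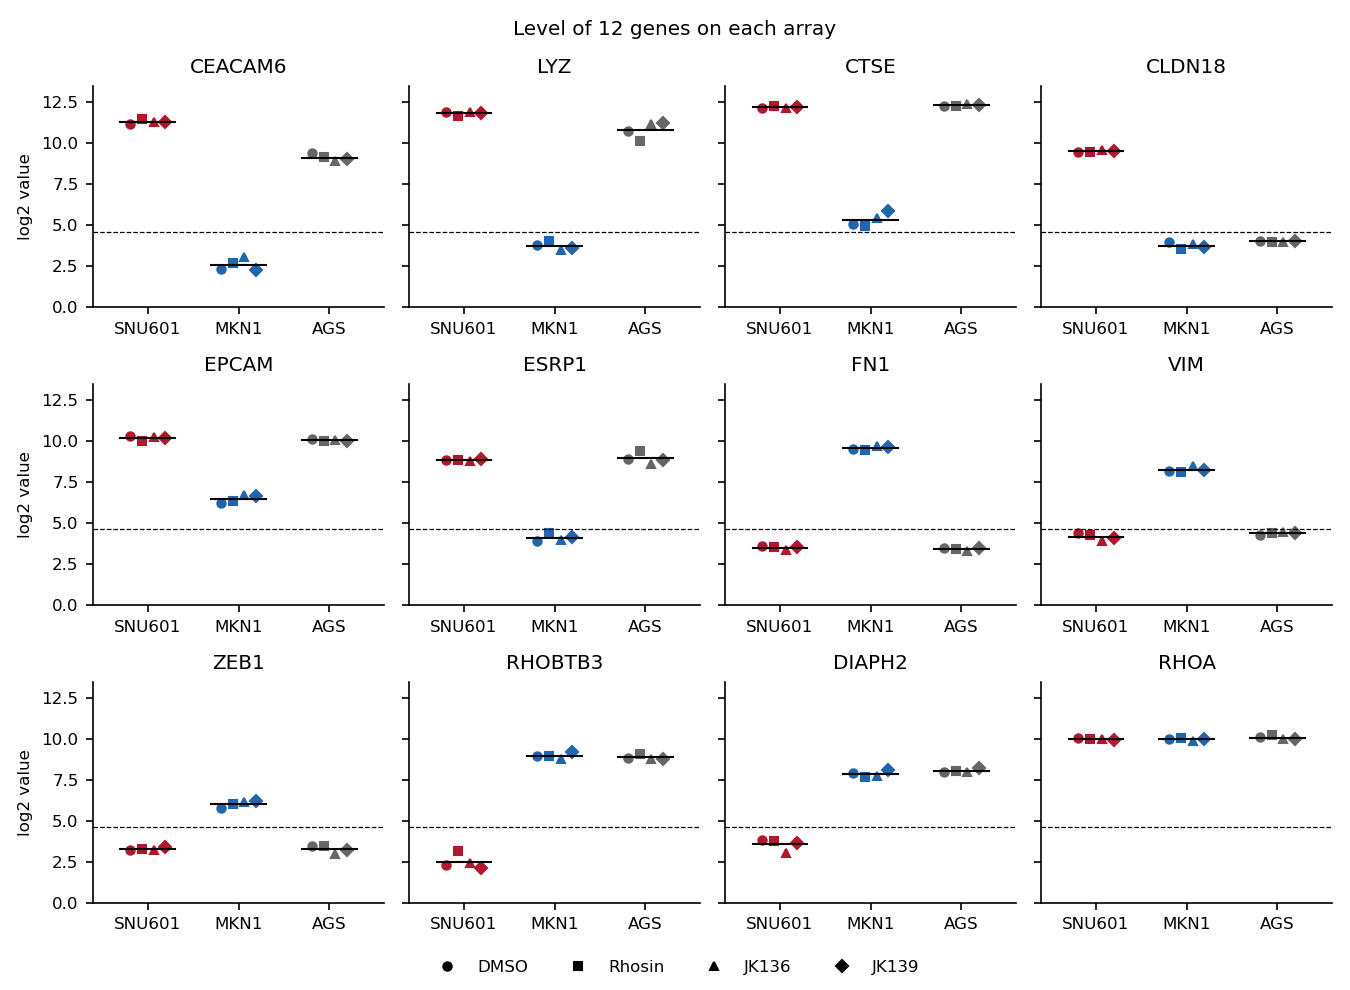
Log2 value on each array for 12 genes in SNU601 (left), MKN1 (middle) and AGS (right), 4 arrays per line, with a bar at the mean and the treatment given by the marker shape. SNU601 and MKN1 do not overlap in any panel except RHOA, and the dashed line marks the low level of 4.61.

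The miR-200 family, microRNAs known to silence ZEB1 and ZEB2, was examined at its host loci. These clusters read the precursor region rather than the mature microRNA, and most values were low, so the differences below are between values near background. All 5 loci were called higher in SNU601 (named after their values were seen). MIR200C read 4.13, 4.68, 4.16 and 4.12 in SNU601, against 1.63, 2.71, 2.69 and 2.68 in MKN1, a difference of 1.84 ± 0.249. MIR141, its neighbour on chromosome 12, was higher by 0.87. On chromosome 1, MIR429 was higher by 0.8, MIR200A by 0.72 and MIR200B by 0.29, the weakest of the 5, whose call was lost in 7 of 16 alternatives (adjusted p up to 0.0798), 6 of them the loss of a single array. The mature sequences (RefSeq, GRCh38.p14) fall into 2 groups by their seed, bases 2 to 8, shown in capitals, and each chromosome carries a member of both groups.
hsa-miR-200c-3p: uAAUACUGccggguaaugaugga
hsa-miR-200b-3p: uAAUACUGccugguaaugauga
hsa-miR-429: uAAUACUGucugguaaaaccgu
hsa-miR-141-3p: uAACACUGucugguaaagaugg
hsa-miR-200a-3p: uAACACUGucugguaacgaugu
Among 1088 miRNA genes, 181 were called higher and 86 lower in SNU601, with a median difference of 0.07, and 755 had a mean at or below the low level.

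Genes of the gastric lining were also higher in SNU601, in 15 of 18 measured cases, with 1 lower and 2 not past the threshold, beside 21.8% called higher over all genes. The median difference was 2.2, and 14 were at least 2-fold higher, beside 5.27% of all genes. CTSE, the aspartic protease cathepsin E, read 12.14, 12.25, 12.16 and 12.22 in SNU601, against 5.09, 4.98, 5.44 and 5.88 in MKN1. CLDN18 read 9.5, 9.47, 9.59 and 9.52 in SNU601, against 3.98, 3.53, 3.86 and 3.66 in MKN1, a difference of 5.76 ± 0.094 (limma adjusted p = 7.74e-12). AGR2, an endoplasmic reticulum protein needed for mucin folding, read 7.93, 8.3, 7.73 and 7.98 in SNU601, against 2.14, 3.25, 2.64 and 2.73 in MKN1. CLDN18 and AGR2 were low on every MKN1 array. The trefoil peptide genes TFF1 and TFF2, whose products protect the mucus layer, were higher by 4.08 and 2.33, and the calpains CAPN8 and CAPN9 by 4.08 and 2.77.

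Not all gastric genes were on in SNU601. GKN1, a secreted protein of surface mucous cells, averaged 2.0 in SNU601 and 1.91 in MKN1, and GKN2 averaged 2.17 and 1.77. PGC, the precursor of gastricsin, was higher by 1.17 but averaged only 5.02 in SNU601. Of the transcription factors, SOX2 was higher by 2.49, GATA4 by 2.06, FOXA2 by 1.29, GATA6 by 1.21 and FOXA1 by 1.16. BARX1, a homeobox gene of the stomach mesenchyme in the mouse embryo, was lower, at 4.92 ± 0.24 in SNU601 and 6.67 ± 0.16 in MKN1 (SD, n = 4 each). Of the 18 gastric genes, SNU601 was above the low level on all 4 arrays for 14 and low on all 4 for 2. MKN1, although labelled as a stomach cancer line, was above it on all 4 arrays for 4, which were CTSE, GATA6, FOXA2 and BARX1, and low on all 4 for 12.

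Intestinal genes were called in 1 direction, though many were low in both lines. Of 12 measured, 7 were called higher in SNU601 and none lower, beside 21.8% and 24% of all genes. The other 5 did not pass the threshold, and the median difference was 0.56. CEACAM5 and CEACAM6 led this list, followed by VIL1, the microvillus protein villin, at 7.59, 7.47, 7.57 and 7.43 in SNU601, against 4.82, 3.51, 4.8 and 4.1 in MKN1. CDX2, the homeobox factor of intestinal identity, was higher by 0.68. SI and GUCY2C, products of mature enterocytes, averaged 2.08 and 3.0 in SNU601 and 2.08 and 2.9 in MKN1, all low.

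Keratins split between the lines. Of 12 measured, 3 were called higher in SNU601 and 8 lower (6 after median centring), beside 21.8% and 24% of all genes. KRT7, a keratin of ducts and simple epithelia, read 3.79, 4.11, 3.8 and 3.47 in SNU601, against 6.75, 7.08, 7.27 and 6.95 in MKN1. KRT14 and KRT5, the keratin pair of basal squamous cells, fell by 1.5 and 1.33, and KRT80 by 1.49. KRT20, of gastric foveolar and intestinal cells, was higher by 1.68, and KRT13, of non-keratinised squamous epithelium, by 1.34. KRT18, the general keratin of simple epithelia, was close in both lines, at 10.5 in SNU601 and 10.75 in MKN1, and its call was lost in 9 of 18 alternatives (adjusted p up to 0.207).

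MKN1 comes from an adenosquamous tumour, so squamous markers outside the keratins were counted too. Of 13 measured, 4 were called higher in SNU601 and 4 lower, beside 21.8% and 24% of all genes. The other 5 did not pass the threshold, and the median difference was 0.15. After median centring the counts were 7 higher and 3 lower. On the deposited values 3 were at least 2-fold higher and 1 at least 2-fold lower, beside 5.27% and 7.46% of all genes. The largest difference was that of the cornified envelope precursor SPRR1A, at 5.51 in SNU601 and 3.76 in MKN1. DSC3 and TRIM29 fell by 1.06 and 0.68.

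**Figure D3:**
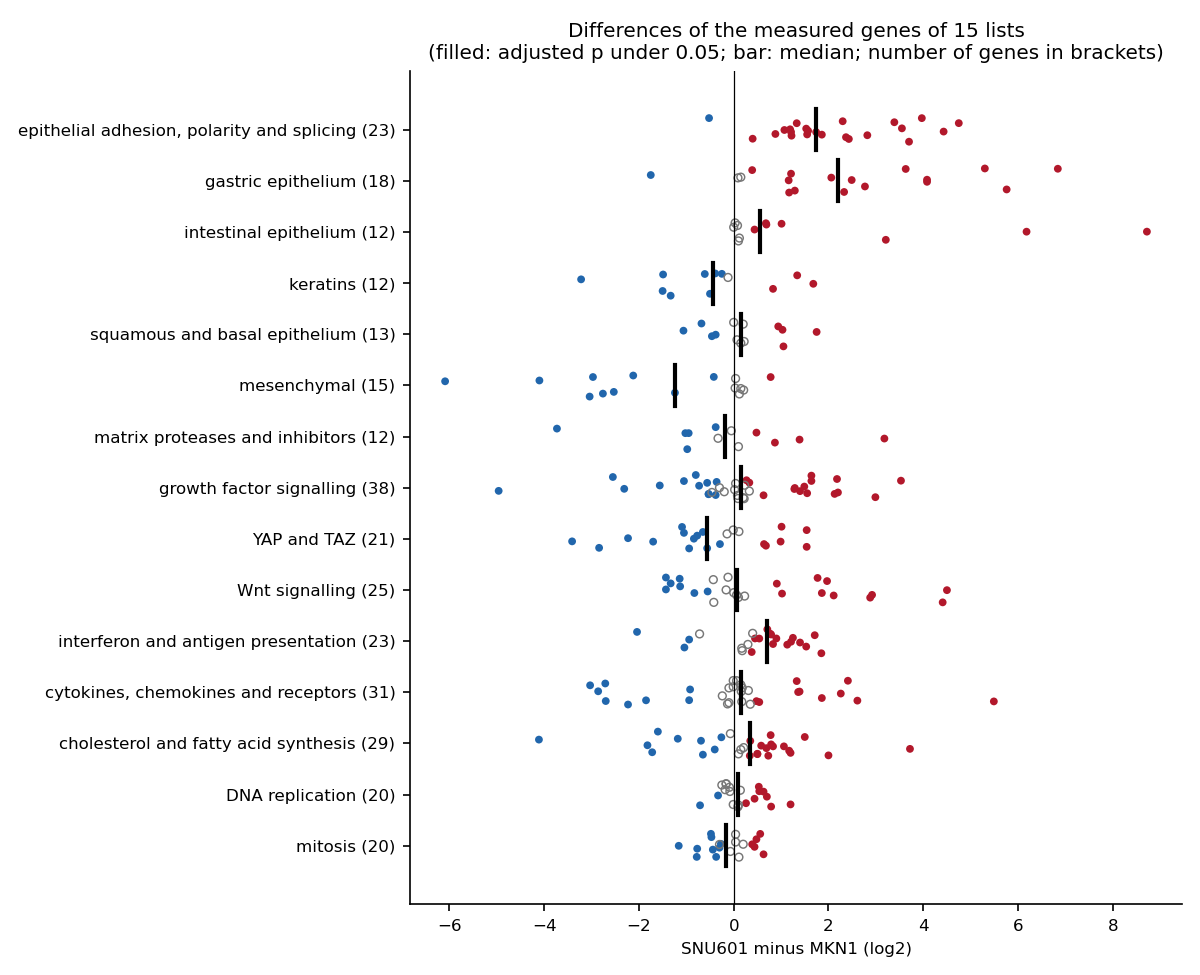
Difference of SNU601 minus MKN1 (log2) for each measured gene of 15 gene lists, 1 point per gene, filled where called at an adjusted p under 0.05, with a bar at the list's median. The epithelial list (median 1.74) and the gastric list (2.2) lie right of zero and the mesenchymal list (-1.24) left of it.

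RHOA itself, the target of Rhosin, differed little between the lines. It read 10.07, 10.02, 9.99 and 9.96 in SNU601, against 10.02, 10.04, 9.88 and 9.98 in MKN1, a difference of 0.03 with a 95% confidence interval of -0.14 to 0.2 (limma adjusted p = 0.791). RHOB averaged 6.72 ± 0.1 in SNU601 and 7.08 ± 0.07 in MKN1 (SD, n = 4 each). RHOC averaged 5.27 ± 0.19 in SNU601 and 5.17 ± 0.16 in MKN1 (SD, n = 4 each). Neither passed the threshold, with adjusted p of 0.112 and 0.545, and the interval for RHOB, from -0.73 to 0.02, leaves room for a 1.5-fold difference. A fit on the 8 arrays of the 2 lines alone did call RHOB lower in SNU601, at -0.36 (limma adjusted p = 0.00729), as did the 12-array fit with array weights (0.0462) or without the SNU601 JK136 array (0.0496).

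Targets of YAP and TAZ, the coactivators that respond to cell tension, were mostly lower in SNU601. Of 9 measured targets, 7 were called lower and 1 higher, beside 24% and 21.8% of all genes, and 1 did not pass the threshold. FJX1 fell by 3.41, CRIM1 by 2.84 and CCN2 by 2.23. ANKRD1 was the higher one, at 6.87, 5.06, 6.3 and 6.49 in SNU601, against 5.57, 5.2, 5.64 and 5.74 in MKN1. The lines overlapped for ANKRD1, since SNU601 under Rhosin was the lowest of the 8 arrays. Its difference of 0.64 (limma adjusted p = 0.0386) lost its call with no term for treatment (0.0802), with treatment as a random block (0.0789), with a robust prior (0.0556) and without any 1 of 6 arrays, among them SNU601 under DMSO (0.39, limma adjusted p = 0.157), and was 0.94 without SNU601 under Rhosin (adjusted p = 0.00098). Of 12 measured regulators, 5 were called higher and 5 lower. YAP1 itself did not pass the threshold, with a difference of -0.14, while WWTR1 (TAZ) fell by 0.77. TEAD1, a DNA-binding partner, fell by 1.05, and its relative TEAD2 was higher by 1.54.

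Some Wnt feedback genes stood out on the SNU601 side. LGR5, the R-spondin receptor of stem cells, read 8.93, 8.62, 8.89 and 8.99 in SNU601, against 4.28, 4.79, 4.07 and 4.28 in MKN1. RNF43, a ubiquitin ligase that removes Wnt receptors, read 8.87, 8.73, 8.82 and 8.89 in SNU601, against 4.57, 4.58, 4.18 and 4.33 in MKN1. AXIN2, a general readout of Wnt signalling, was higher by 2.92, DKK4 by 2.88 and ZNRF3 by 1.97. In AGS, LGR5, RNF43 and AXIN2 were higher still, at 10.06, 9.6 and 9.44. The whole list was less one-sided, with 10 of 25 called higher, 7 lower and 8 not past the threshold. The shares over all genes were 21.8% higher and 24% lower. Of its 14 targets and feedback regulators, 6 were called higher and 3 lower, with a median difference of 0.17. APCDD1 and DKK1 fell by 1.43 and 1.14. LEF1 was just short of the threshold (-0.42, limma adjusted p = 0.0503). It was called in 7 of 16 alternatives, among them the 8 arrays alone (0.0133) and the loss of SNU601 Rhosin (0.0109) or MKN1 JK136 (0.0414). BAMBI did not pass the threshold, with a difference of 0. Among receptors, LRP6, FZD5 and LRP5 were higher by 2.11, 1.86 and 1.77, and FZD1, FZD2 and FZD4 fell by 1.43, 1.33 and 1.13.

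Of 22 measured receptor tyrosine kinases, 11 were called higher in SNU601 and 6 lower, beside 21.8% and 24% of all genes. At least 2-fold apart were 9 higher and 1 lower, beside 5.27% and 7.46%. MST1R (RON) averaged 7.43 ± 0.12 in SNU601 and 3.91 ± 0.21 in MKN1 (SD, n = 4 each), and ERBB3 averaged 7.37 ± 0.2 in SNU601 and 4.38 ± 0.17 in MKN1. MET, the hepatocyte growth factor receptor, was higher by 1.64, FGFR2 by 2.18 and EPHA1 by 2.13. FGFR1 fell by 1.56 and EGFR fell by 0.8. Of the ligands, the EGFR ligand EREG read 3.55, 3.85, 3.49 and 3.79 in SNU601, against 8.21, 8.83, 8.85 and 8.62 in MKN1. PDGFC fell by 2.55 and FGFBP1, which releases stored FGF, by 2.31, and KITLG was higher by 2.2.

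TGF-beta and BMP genes were lower in SNU601 in 8 of 15 measured cases, with 2 higher and 5 not past the threshold, beside 24% called lower and 21.8% called higher over all genes. FSTL1 and GREM1, secreted antagonists and binding proteins, fell by 2.33 and 1.41, and SMAD7 by 0.64. GDF15, a stress-induced family member, was higher by 2.14. Among matrix proteases, MMP1 read 5.99, 7.19, 7.52 and 6.01 in SNU601, against 3.56, 3.27, 3.36 and 3.79 in MKN1, with the highest values under Rhosin and JK136. MMP14 was higher by 1.39. The inhibitors TIMP3 and TIMP2 fell by 3.73 and 1.02. Collagen, laminin and integrin genes were not analysed here.

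Chemokine genes differed in both directions. Of 12 measured, 6 were called higher in SNU601 and 3 lower, beside 21.8% and 24% of all genes. Besides CXCL5, CXCL16 was higher by 2.41, CXCL8 by 1.86 and CCL20 by 1.39. CCL2, which attracts monocytes, fell by 3.03 and CXCL14 by 2.7. Of 10 interleukins and other cytokines, 2 were called higher and 2 lower, and of 9 receptors 2 higher and 3 lower. Among them, IL17RB and IL1RN were higher by 2.61 and 2.26, and ACKR3, IL7R and LIFR fell by 2.86, 2.71 and 2.23.

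Interferon-induced genes were higher in SNU601 in 13 of 21 measured cases, with 3 lower and 5 not past the threshold, beside 21.8% called higher and 24% called lower over all genes. IFIT1, which binds foreign RNA, read 5.3, 4.72, 5.49 and 5.35 in SNU601, against 3.82, 3.49, 3.01 and 3.14 in MKN1. OASL was higher by 1.71 and RSAD2 by 1.53. MX2, a restriction factor of the same response, ran against the list, at 4.6 ± 0.32 in SNU601 and 6.64 ± 0.16 in MKN1 (SD, n = 4 each), and SAMD9L fell by 1.04.

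Calcium-binding families differed gene by gene. S100A14, an epithelial S100 protein, was higher by 3.29, whereas S100A3, S100A9 and S100A8 fell by 1.45, 1.29 and 1.25. Among annexins, ANXA10, a gastric marker, was higher by 3.63, and ANXA8, ANXA6 and ANXA1 fell by 2.93, 1.52 and 1.46. Metallothioneins, which bind zinc and copper, were lower in 5 of 9 measured cases and higher in none (2 after median centring), led by MT2A at 5.84, 5.29, 6.12 and 5.73 in SNU601, against 8.6, 8.43, 8.44 and 8.22 in MKN1. The shares over all genes were 24% called lower and 21.8% called higher. The near-identical sequences of metallothioneins make the split among MT1 genes uncertain.

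Lipid genes were counted by pathway, beside 21.8% called higher and 24% called lower over all genes. Of 15 cholesterol synthesis genes, 12 were called higher in SNU601 and 2 lower, with SQLE, an oxygenase that controls the pathway's rate, higher by 1.5 and SREBF2, its transcription factor, by 1.2. Of 14 genes of fatty acid synthesis and desaturation, 4 were called higher and 7 lower, with a median difference of -0.15. ELOVL5, which lengthens polyunsaturated fatty acids, read 3.33, 3.37, 3.43 and 3.33 in SNU601, against 7.79, 7.71, 7.17 and 7.25 in MKN1. The desaturases FADS1, FADS2 and FADS3 fell by 1.82, 1.18 and 1.72. ACSL5, which activates fatty acids, was higher by 3.72. ELOVL5 was also low in AGS, at a mean of 3.3.

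Proliferation genes held few 2-fold differences. Of 20 replication factors, 8 were called higher in SNU601 and 2 lower, beside 21.8% and 24% of all genes. Only GINS2 was at least 2-fold apart, at 1.2. Of 20 mitotic factors, 5 were called higher, near the share over all genes, and 9 lower, with KIF20A the only one at least 2-fold apart, at -1.16. After median centring 6 mitotic factors were called higher and 6 lower. Of 11 cyclins and cyclin-dependent kinases, 4 were called lower in SNU601, none higher, and 7 did not pass the threshold. Their median difference was -0.14, and after median centring 2 were called higher and 4 lower. The G1/S cyclins CCNE2 and CCNE1 were among the lower ones, with differences of -1.4 and -1.27, and the kinase CDK14 fell by 2.8. The inhibitor CDKN2A averaged 3.96 in SNU601 and 5.28 in MKN1.

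Cell death and stress genes held a few large differences. DAPK1, a death-associated kinase, read 3.4, 3.02, 3.51 and 3.5 in SNU601, against 8.15, 8.12, 8.05 and 8.18 in MKN1. PMAIP1 (NOXA) fell by 1.97 and BCL2 by 1.14, and APAF1 was higher by 1.05. Of 11 p53 targets, 3 were called higher and 3 lower, near the shares over all genes (21.8% and 24%), with BAX higher by 1.05 and TP53INP1 falling, with a difference of -1.14. Among detoxifying enzymes, UGT8 was higher by 4.02 and ALDH2, which clears acetaldehyde, by 2.24. Of 7 NRF2 targets measured out of 19 listed, 2 were called higher and 1 lower, beside 21.8% and 24% of all genes. The other 4 did not pass the threshold. Of 13 hypoxia and glycolysis genes, 2 were called higher and 6 lower, beside 21.8% and 24% of all genes. HK2 (a hexokinase) was higher by 1.49 and LDHA fell, with a difference of -0.79.

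Developmental and germline genes completed the fixed lists. HOXC9, HOXC10 and HOXC11 were higher by 1.44, 1.26 and 1.1, and HOXD10 and HOXC13 fell by 1.79 and 1.1, among 27 measured HOX genes. Of 10 imprinted genes, 3 were called, all lower (1 more was called higher after median centring), beside 24% called lower over all genes. PEG10 fell by 4.81, MEST by 3.79 and PLAGL1 by 2.18. MEST was high in AGS as in MKN1, at a mean of 6.72, while PEG10 was low in AGS, at 4.1. Of 4 listed cancer-testis antigens with a symbol, PRAME fell by 0.83. Among 10 housekeeping genes, 3 were called lower and none higher, none of them 2-fold, beside 24% and 21.8% of all genes. But after median centring 2 were called higher and 2 lower. GAPDH averaged 6.16 in SNU601 and 6.32 in MKN1.

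Markers of other cell types were examined in the same way. Of 9 leukocyte markers, 4 were low on all SNU601 arrays and 3 on all MKN1 arrays, and their mean ran from 4.78 to 4.9 over SNU601 arrays and from 4.82 to 5.01 over MKN1 arrays. Of 8 endothelial markers, 5 were low on all 4 arrays in each line, with means of 3.96 to 4.16 in SNU601 and 4.15 to 4.28 in MKN1. Of 4 fibroblast markers, LUM was above the low level on all 4 MKN1 arrays, and 2 were low on all 4, while in SNU601 3 were low on all 4 arrays and none above on all 4. Their means ran from 3.05 to 3.25 in SNU601 and from 4.26 to 4.52 in MKN1. LUM was the only 1 of the 4 fibroblast markers called, and the list's median difference was 0.1. Of 8 neuroendocrine markers, 6 were low on all SNU601 arrays and 3 on all MKN1 arrays, and UCHL1 fell by 3.77, with means over the list of 3.86 to 3.98 in SNU601 and 4.46 to 4.59 in MKN1. The part of such cells in the differences was not tested.

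A stricter rule looked for genes switched between the lines: at least 3 log2 units above the low level on all 4 arrays of one line and low on all 4 arrays of the other. It found 12 genes on in SNU601 and 39 on in MKN1. The 12 were CEACAM6, LYZ, CEACAM5, CLDN18, AGR2, PIWIL1, MUCL3, GALNT5, AFAP1-AS1, ESRP1, GALNT3 and RNF43. In AGS, 4 of the 12 were low on all arrays and 5 were on. Of the 39, AGS was low for 32 and on for 2, RHOBTB3 and DIAPH2. The formin DIAPH2, which builds actin filaments, read 3.83, 3.75, 3.02 and 3.62 in SNU601, against 7.91, 7.66, 7.71 and 8.11 in MKN1, and averaged 8.07 in AGS. Besides the genes already described, the 39 included, chosen after their values were seen, TNC, the matrix protein tenascin C, DPYSL3, MAOB, IGFBP1, CAMK1D and NUP210. They also held GAGE13 and other near-identical GAGE copies of the X chromosome, described below, so not all of the 39 count as separate genes.

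The promoters of these genes were counted for CpG dinucleotides, where a sequence was at hand. The observed CpG count exceeded 0.6 of that expected from base content in 2 of 8 promoters of genes on in SNU601 and in 19 of 31 of genes on in MKN1. The 31 include several near-identical GAGE copies, each with a ratio of 0.44, which lower that share. The share was 68% over all measured genes and 81.7% over genes with a mean above the low level. Among called genes at least 2-fold apart it was 65.4% of those higher in SNU601 and 75.8% of those lower. The promoters of CEACAM6 (chr19:41755280-41755529, plus strand) and FN1 (chr2:215436069-215436318, minus strand) show the 2 kinds, with each CpG in capitals, 5 in the first and 32 in the second.
CEACAM6: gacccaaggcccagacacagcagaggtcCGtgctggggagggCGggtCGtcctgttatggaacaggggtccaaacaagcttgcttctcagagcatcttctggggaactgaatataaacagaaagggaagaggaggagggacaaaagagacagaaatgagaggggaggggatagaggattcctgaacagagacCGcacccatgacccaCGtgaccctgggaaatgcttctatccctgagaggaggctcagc
FN1: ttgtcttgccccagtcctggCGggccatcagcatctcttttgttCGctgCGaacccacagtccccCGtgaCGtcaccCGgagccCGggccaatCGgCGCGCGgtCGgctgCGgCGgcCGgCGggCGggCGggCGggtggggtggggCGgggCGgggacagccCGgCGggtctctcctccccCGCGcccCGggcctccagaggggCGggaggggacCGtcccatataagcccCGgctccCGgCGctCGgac
Their observed over expected CpG ratios were 0.22 for CEACAM6 and 0.86 for FN1, over the full windows. Methylation was not measured.

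The share of called genes was also counted by chromosome. Chromosome 9 had 105 of its 578 genes called at least 2-fold lower in SNU601 (18.2%, beside 7.46% of all genes), and its median difference was -0.225. Chromosomes 4 and 5 each had 11.9% of genes called at least 2-fold lower. Genes at least 2-fold higher were most frequent on chromosome 6 (8.82%, beside 5.27% of all genes) and chromosome 19 (8.42%). On chromosome 22, 2.06% of genes were at least 2-fold lower.

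**Figure D4:**
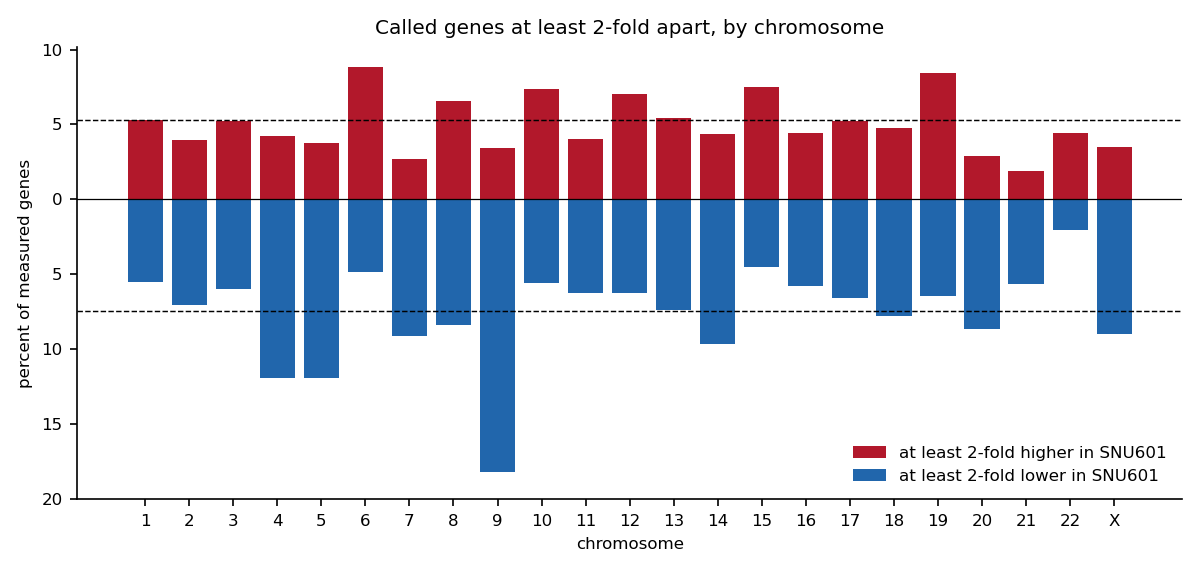
Percent of measured genes on each chromosome called at least 2-fold higher (bars above 0) or lower (bars below 0) in SNU601, with dashed lines at 5.27% and 7.46%, the shares over all genes. Chromosome 9 has the longest lower bar, at 18.2%.

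Neighbouring genes moved together in several places. Of windows of 25 neighbouring genes above the low level, a measure added after the values were seen, the lowest median was on chromosome 9 from NINJ1 to TRIM14, at -1.21, where 24 of 25 genes were called lower and none higher. A second low window lay on chromosome 17 from MIR4522 to PHF12, at -1.01. The highest was on chromosome 6 from HMGA1 to PIM1, at 0.89, where 22 of 25 genes were called higher and none lower. Over all 8372 overlapping windows, the 5th and 95th percentiles of the median were -0.516 and 0.457. DNA copy number was not measured.

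Runs of at least 5 adjacent measured genes, all called at least 2-fold the same way, were found at 7 places. MYC, the proliferation factor, and the miRNA loci MIR1204, MIR1205, MIR1206 and MIR1207 beside it were higher in SNU601. MYC read 7.95, 8.09, 8.21 and 8.02 in SNU601, against 4.99, 4.76, 5.69 and 4.91 in MKN1. HOTAIR, HOXC11, HOXC10, MIR196A2 and HOXC9 on chromosome 12 were higher by 1.03 to 1.44. On chromosome 19, 6 zinc finger genes (ZNF586, ZNF552, ZNF587B, ZNF587, ZNF814 and ZNF417) were higher by 1.09 to 1.79. These zinc finger genes are related in sequence, so shared probes may add to their likeness.

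Lower runs lay on chromosomes 5, 9, 12 and X. On chromosome 5, TMED7, ATG12, LVRN, ARL14EPL and COMMD10 fell by 1.17 to 4.97. On chromosome 12, CCDC91, FAR2, ERGIC2, TMTC1 and IPO8 fell by 1.14 to 2.31. The chromosome 9 run held SLC71A2, AOPEP, MIR2278, MIR23B and MIR27B, inside the low window above. MIR27B read 3.97, 4.56, 4.22 and 4.06 in SNU601, against 7.31, 7.47, 6.93 and 7.05 in MKN1, and MIR23B fell by 1.8. Their mature products (RefSeq, GRCh38.p14, seed in capitals) are shown because this locus is a miRNA cluster with 2 different seeds.
hsa-miR-23b-3p: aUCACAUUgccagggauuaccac
hsa-miR-27b-3p: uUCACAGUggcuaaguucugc
On the X chromosome 6 GAGE genes, near-identical copies of a cancer-testis antigen, fell by 3.93 to 4.43. GAGE13 read 4.02, 4.11, 4.18 and 3.91 in SNU601, against 8.37, 8.48, 8.61 and 8.49 in MKN1, but which copies gave the signal is uncertain.

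The DMSO pair alone, 1 vehicle array of each line with no replicate and so no test, had 871 genes at least 2-fold higher in SNU601 (5.85%) and 1153 at least 2-fold lower (7.75%). The Rhosin pair had 818 and 1220, the JK136 pair 826 and 1175, and the JK139 pair 836 and 1171. These counts share arrays with the test over 4 pairs and do not add independent support. Of the 2024 genes past 2-fold in the DMSO pair, 26 (1.28%) were not called over the 4 pairs, and 21 of the 26 had a mean at or below the low level.

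Outside the 30 genes leading the test, the DMSO pair was led by SCEL, DSC2, SHISA6, BCL2L15 and IQGAP2 on the SNU601 side, with differences of 4.51, 4.44, 4.4, 4.32 and 4.32. SCEL (sciellin) is a precursor of the cornified envelope and IQGAP2 a scaffold that binds Rac and Cdc42. On the MKN1 side it was led by HSPA4L, TNC, CNTNAP3, MTX3 and PEG10, with differences of -5.13, -5.11, -5.05, -5.04 and -5.03. HSPA4L, a heat shock protein of the HSP110 family, read 2.44 in SNU601 and 7.57 in MKN1 under DMSO and was as far apart under the other treatments, between -5.5 and -4.59. SCEL and HSPA4L were high in AGS, at means of 7.1 and 7.45.

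The line difference was not detectably altered by the compounds. A term for the change of the difference between the 3 compounds together and DMSO called 0 of 14884 genes in limma, with a lowest adjusted p of 0.999. Before adjustment 489 genes (3.29%) were at p under 0.05. With 1 array per line and treatment this term had little precision, so changes in single genes were not detectable rather than absent. The spread between compounds was its error, so an effect of 1 compound alone would widen the error and could be missed. No compound was tested alone. The lowest p belonged to MIR4433A, with a difference of -0.48 under DMSO and of 1.11, 0.87 and 1.59 under Rhosin, JK136 and JK139, at low values. ZNF480 had differences of -1.97, -3.87, -3.99 and -3.15 in the same order. ACTR3BP2, MIR143 and LCMT1P1 followed, all with means at or below the low level.

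Among genes above the low level, the widest spread of the 4 paired differences was 2.1, in ZNF430. It was 1.05 under DMSO, -0.93 under Rhosin, 1.06 under JK136 and -1.04 under JK139. ZNF736, ZNF544, MMP1, MIR194-2 and MIR4500 came next, with spreads of 1.97, 1.94, 1.94, 1.87 and 1.8. For MMP1 the differences were 2.43, 3.93, 4.16 and 2.22, all in favour of SNU601. RHOA had a spread of 0.14.

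AGS was set beside both lines for a further reading. Of the 784 genes at least 2-fold higher in SNU601, AGS was nearer to SNU601 than to MKN1 in 525 (67%). Of the 1110 lower genes, it was nearer to SNU601 in 854 (76.9%). AGS arrays also correlated more with SNU601 (0.9525 to 0.96) than with MKN1 (0.9273 to 0.9331). EPCAM, CLDN7, CTSE and ESRP1 averaged 10.04, 9.63, 12.32 and 8.95 in AGS, near their SNU601 levels. CLDN18, AGR2, CXCL5, PIWIL1 and MUCL3 averaged 4.02, 3.38, 4.48, 4.47 and 4.08 in AGS, near their MKN1 levels.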

How the data were processed

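Expression was measured on 12 Affymetrix Human Gene 2.0 ST arrays. The authors deposited log2 values per transcript cluster, made with Expression Console by RMA per the submitters' processing notes; versions and filters are not given in the sources used here. Array medians ran from 4.14 to 4.20 over all clusters and from 5.03 to 5.16 over genes. The number of arrays limits the precision, beside the limits of the design given above. Gene symbols came from the platform annotation: 16098 clusters had 1 symbol, matched by gene ID to RefSeq (GRCh38.p14), and 37519 had none. The cluster with the highest mean stood for each of 14884 genes.

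Differences were fitted with limma 3.58.1 in R 4.3.3 on all 12 arrays, with cell line and treatment as terms (6 residual degrees of freedom), no filter on low values, and Benjamini-Hochberg adjustment over all genes. AGS arrays add to the estimate of the spread. Treatment, from the sample titles, pairs the arrays, and no replicate number or separate culture is labelled. "Called" means an adjusted p under 0.05. The fit was tested on simulated data. Alternatives changed the arrays fitted, the treatment term, scaling, low-value filter, cluster choice, prior, weights and threshold, and left out each array.

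Genes were named by rule: the 15 highest and 15 lowest differences with 1 sign in 4 pairs, RHOA, RHOB and RHOC, up to 4 of the largest called differences in each role of each gene list, the leaders of the DMSO pair, the 5 lowest p-values for the change with compounds, and the 6 widest spreads over pairs. Other list members are given as values, and adjacent runs, windows and miRNA loci were described after their values were seen. The members and lists were chosen with earlier results of these data known. Figures were drawn with matplotlib 3.10.9. Some results on 1 gene list are not reported here.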

Additional observations from a re-analysis of the deposited data

Results flagged for a closer look

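In each line the named genes were searched for an array far from its 3 fellows, by Dixon's gap test at the 95% level. It picked out 38 of 530 groups of 4 arrays (7.17%), and chance alone gives about 1 in 20. The replicates are different treatments, so a stray array and its treatment cannot be told apart. In all 38 the stray value lay outside the range of the other line, but this does not mean that the lines were separated. For ACTR3BP2 the SNU601 DMSO value (3.85) was above the MKN1 range (2.87 to 3.74), and the other SNU601 arrays (2.61 to 2.78) were below it. For TWIST1 the MKN1 DMSO value (2.47) was below the SNU601 range (2.52 to 2.93), and the other MKN1 arrays (2.64 to 2.66) were inside it.

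On the SNU601 DMSO array ACTR3BP2 read 3.85, against 2.61 to 2.78 on the other SNU601 arrays, and AGR3 read 5.39, against 4.72 to 4.8. On the Rhosin array CRB3 (6.62), MIR200C (4.68) and PLAGL1 (3.82) were high and PALMD (3.11) low. MIR200C on the other SNU601 arrays ran from 4.12 to 4.16. On the JK136 array ATG12 (6.26), CDK14 (3.84), DKK1 (7.15), KRT5 (3.63) and MAOB (3.58) were high and CXCL16 (8.53), FN1 (3.33) and LDHA (6.44) low. DKK1, a secreted Wnt antagonist, ran from 6.45 to 6.51 on the other SNU601 arrays. On the JK139 array FOXN3 (6.06), ZEB1 (3.43) and ZNF480 (2.64) were high and FOXA1 (5.31) low.

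On the MKN1 DMSO array FZD5 (5.63), LINC00525 (6.18), OASL (5.44) and TEAD2 (6.0) were high, and CAPN9 (3.37), MIR200C (1.63), TWIST1 (2.47) and ZNF480 (4.08) low. ZNF480 ran from 5.79 to 6.01 and MIR200C from 2.68 to 2.71 on the other MKN1 arrays. On the Rhosin array CLDN3 (6.44), CNTNAP3 (7.53) and ZNF587 (5.17) were low. On the JK136 array SNAI1 read 5.21, against 4.8 to 4.85. On the JK139 array ATG12 (8.42), CCN2 (8.33), IPO8 (9.61), MEST (7.15), SAMD9L (6.61) and SYCP2 (8.71) were high, and PIWIL1 (3.85) and S100A3 (5.15) low. The JK136 array of SNU601 and the DMSO and JK139 arrays of MKN1 held 8 such values each, the most of the 8 arrays.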

How the results depend on the processing

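Of the 265 genes named in the text, 244 were called on the deposited values, and 253 kept their side of the threshold in each of 18 alternatives, counting those in which they were tested. No called difference changed sign, while 8 that were not called did in at least 1 alternative, none of them with an adjusted p below 0.512: GUCY2C, MIR143, MIR4522, PRRX1, RHOA, RHOC, ZEB2 and ZNF430, the last at 0.03 on the deposited values and down to -0.29 without SNU601 JK136 or MKN1 DMSO. The 12 others were ANKRD1, GKN2, KRT18, MIR200B, SNAI1 and ZNF736, which lost their call somewhere, and ACTR3BP2, LEF1, MIR194-2, MIR4433A, RHOB and TWIST2, which gained one. GKN2 lost its call without either Rhosin array (up to 0.0585), and ZNF736 without either Rhosin array or MKN1 JK136 (up to 0.0606). MIR194-2 was called without SNU601 Rhosin (-0.81, adjusted p = 0.00606) and TWIST2 without SNU601 DMSO (0.38, adjusted p = 0.0322).

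The count of 6813 called genes became 4234 of 5954 tested above the 60th percentile of gene means, where fewer genes were tested, and 2146 in limma's test against a 1.5-fold difference, and it was 6154 to 6354 with 1 array left out. The 1894 genes called at least 2-fold apart became 939 above that percentile and 538 at 4-fold, and 1870 to 1918 with 1 array left out. No replicate block, meaning no term for treatment, gave 6872 called genes and 1894 at 2-fold. Median centring split the 2-fold genes into 935 higher and 957 lower, against 784 and 1110 on the deposited values, and quantile normalization into 831 and 1047. The cause was not tested. The change with compounds called 0 genes in every fit run, with 476, 416 and 687 genes at an unadjusted p under 0.05 after centring, with another prior and with 8 arrays alone. The DMSO pair kept its count within 1.5 times. Genes on in one line and low in the other numbered 118 at a distance of 2 log2 units and 22 at 4, against 51 at 3, and 51 to 57 without 1 treatment pair. Low values limit differences at background, where no detection call was given.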

Other observations

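Shorter runs of neighbouring genes at least 2-fold apart were found at 4 more places, with 4 genes each. On chromosome 7, TSPAN13, AGR2, AGR3 and AHR were higher in SNU601 by 1.32 to 5.3, which joins the mucin-folding gene AGR2 to its paralog AGR3 and to AHR, the aryl hydrocarbon receptor. Also on chromosome 7, IGFBP1, IGFBP3, TNS3 and LINC00525 fell by 1.14 to 5.76. On chromosome 9, PRXL2C, MKRN10P, ZNF510 and ZNF782 fell by 1.01 to 2.23, inside the same low stretch as MIR27B. On chromosome 14, EML5, TTC8, FOXN3 and FOXN3-AS1 fell by 1.07 to 2.3.

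Of 37519 clusters without a gene symbol, fitted in the same way, 8047 (21.4%) were called, 1363 of them at least 2-fold higher and 1303 at least 2-fold lower in SNU601. They have no name here and enter no other count.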
